A study of Mus musculus with 10 samples.

Results

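The semaphorins, plexins, Slits, Robos, netrins, Unc5 receptors and Dcc were examined in mouse liver RNA, as families of secreted or membrane-bound guidance cues and the receptors that read them. Members were chosen by gene symbol alone, and 45 of the 24016 transcripts in the deposited table carried such a symbol. These were 20 semaphorins, 9 plexins, 3 Slits, 4 Robos, 4 netrins, and 5 genes of the Unc5 receptors and Dcc. By role, 27 of them were ligands and 18 were receptors.

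Liver was taken from 10 male C57BL/6 mice, 8 to 12 weeks old, on day 6 after an injection into the tail vein. In the AdVEGF group (n = 5), the mice received an adenovirus of serotype 5 that carries VEGF-A165, a form of vascular endothelial growth factor, under the CMV promoter, which is active in many cell types. In the AdCMV group (n = 5), the mice received the same kind of virus with the promoter and no transgene, so both groups were exposed to adenovirus. The livers were perfused with PBS, and RNA depleted of ribosomal RNA was sequenced from whole tissue, with 1 library per mouse. The mouse gene Vegfa, whose values need not include reads of the vector's transgene, was at 13.8 to 23.2 RPKM (reads per kilobase of a transcript, relative to the number of tags mapped in that library) in AdCMV mice and at 28.3 to 39.4 RPKM in AdVEGF mice, a log2 fold change of 0.82 (adjusted p = 0.00487) that lies below the threshold of 1 used for calls. Mapped tags recovered from the values ranged from 5758959 to 13494006 per library in the AdCMV group and from 5596565 to 8133953 in AdVEGF libraries. A transcript 1 kb long that drew 3 reads stood at 0.222 to 0.521 RPKM in the AdCMV libraries and at 0.369 to 0.536 RPKM in the AdVEGF libraries, which limits precision for the low members and covers counting error only. The 21 transcripts of the major urinary proteins (Mup) encode abundant products of hepatocytes. They took 18.0% to 50.5% of the reads summed over all transcripts in AdCMV libraries and 7.84% to 28.6% in AdVEGF libraries. That sum was above the mapped tags in every library (8088392 against 7241358 in AdCMV mouse 1), so these are not shares of the mapped tags. Over the genes tested the log2 fold change had a median of 0.38. Fold changes are therefore given also after median-ratio scaling between libraries, which moved that median to -0.0044. The factors of this scaling were 0.784, 0.806, 1.23, 0.664 and 0.997 in AdCMV mice 1 to 5. In AdVEGF mice 1 to 5 they were 1.17, 1.18, 1.25, 1.2 and 1. A library with a higher factor has higher RPKM at the median gene. High values in AdCMV mice 3 and 5 on the deposited RPKM are therefore not particular to the members.

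Guidance cues were first described in the growing nervous system, where they attract or repel the tips of axons. Semaphorins bind plexins, those of class 3 mostly together with a neuropilin coreceptor; Slits bind Robos; netrins bind Dcc and the Unc5 receptors. Endothelial cells use the same families when vessels sprout and branch, and Plxnd1, Unc5b and Robo4 are known as the plexin, the netrin receptor and the Robo of vascular endothelium.

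Of the 45 members, 31 reached a group mean above 0.5 RPKM in either group and were tested. Ntn4, Plxna4, Robo2, Sema3g, Sema5a, Sema7a and Unc5a passed this filter through the AdVEGF group only, and Ntn3 and Sema5b through the AdCMV group only. For these the group with the higher values made the selection, so the share called among the 31 tested is not free of it. With limma on log2(RPKM + 0.1), 16 were called higher and 1 was called lower in the AdVEGF group, at a Benjamini-Hochberg adjusted p under 0.05 over all 13933 genes tested and a change of more than 1 on the log2 scale in either direction. Over all genes tested, 13.0% were called higher and 1.54% lower. After median-ratio scaling, 13 of the 16 were again called higher and 3 members were called lower, where 7.77% of all genes were higher and 3.14% lower. The counts given below by family are to be read against these shares. Without a filter, 16 of the 45 members were called higher and 1 lower. The median log2 fold change was then 0.60 over the 45 members and 0.32 over all genes above 0 in at least 1 library. The receptors Plxnd1, Unc5b and Robo4 and the semaphorins Sema3f, Sema6a and Sema6d had the highest fold changes of the members tested on this scale, and these 6 were called under every alternative tried. Since whole liver was sequenced, more cells of a type and more RNA per cell cannot be told apart in any of these values.

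The promoters of Plxnd1 and Unc5b, the 2 members with the highest fold changes on log2(RPKM + 0.1), are shown first, because many members were called higher together. RefSeq windows of the 250 bases before the transcription start (GRCm38.p6) were at hand for 36 of the 45 members and for 12 of the 16 called higher. The windows are written 5′ to 3′ on the strand of the gene in lower case, with any match to 4 short motifs in capitals on either strand. These motifs were AGGAAG and CGGAAG (cores of sites for ETS factors), GTGGGAA (RBPJ, the DNA-binding partner of Notch) and GGAATG (TEAD, the DNA-binding partner of TAZ and YAP). The Plxnd1 window lies at chr6:115995006-115995255 on the minus strand, the Unc5b window at chr10:60831582-60831831 on the minus strand.
Plxnd1: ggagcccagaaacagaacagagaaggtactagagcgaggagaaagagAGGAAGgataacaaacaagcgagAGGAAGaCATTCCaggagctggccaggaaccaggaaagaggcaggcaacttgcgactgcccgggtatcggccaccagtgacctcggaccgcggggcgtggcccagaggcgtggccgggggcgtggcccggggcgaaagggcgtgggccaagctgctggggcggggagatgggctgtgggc
Unc5b: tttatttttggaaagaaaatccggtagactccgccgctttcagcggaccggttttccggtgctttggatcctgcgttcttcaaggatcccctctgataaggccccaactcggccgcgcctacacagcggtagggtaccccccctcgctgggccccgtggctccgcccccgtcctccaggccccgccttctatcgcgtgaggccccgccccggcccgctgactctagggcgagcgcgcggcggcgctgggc

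The Plxnd1 window held 3 matches, AGGAAG starting at -203 and at -180 and the reverse complement of GGAATG at -173, and no 2 of them overlapped. The Unc5b window held none of the 4 motifs. Both windows were rich in G and C, at 64.8% and 66.8%, against a median of 52.4% over all 32851 windows. AGGAAG was found in 6 of the 17 windows of the 12 genes called higher (Ntn4, Plxnd1, Robo2, Robo4, Sema3g and Sema6b) and in 29.5% of all windows. By gene, these were 6 of 12 called higher, beside 12 of the 24 other members with a window. GGAATG was found in 1 of these 17 windows, that of Plxnd1, and in 12.6% of all windows. CGGAAG and GTGGGAA were found in 0 of the 17 windows, and in 13.6% and 5.42% of all windows. Such matches are a description of letters and no evidence of binding.

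Among the plexins, the receptors of semaphorins, 7 of 9 were tested, and Plxnd1 and Plxna4 were called higher. Plxnd1 (NM_026376, mm9 chr6:115904829-115945023, minus strand), the plexin of endothelial cells, was at 2.13, 1.95, 3.84, 1.79 and 4.22 RPKM in AdCMV mice 1 to 5 and at 23.35, 19.9, 21.2, 23.45 and 30.95 RPKM in AdVEGF mice 1 to 5. Every AdVEGF mouse was above every AdCMV mouse, AdCMV mice 3 and 5 were the highest of their group, and AdVEGF mouse 5 was the highest of all. The group means were 2.79 ± 1.15 RPKM (SD, n = 5) and 23.8 ± 4.29 RPKM (SD, n = 5). The log2 fold change of Plxnd1 was 3.12 (SE 0.25, adjusted p = 1.91e-07), or 8.68-fold, and 2.73 after median-ratio scaling. Plxnd1 moved from the 8th highest of the 45 members by mean RPKM in the AdCMV group to the highest in the AdVEGF group. Plxna4 (NM_175750, mm9 chr6:32094559-32538192, minus strand), a plexin that pairs with neuropilins for class 3 semaphorins, was low, at 0.099, 0.089, 0.263, 0.093 and 0.304 RPKM in the AdCMV mice and at 0.695, 0.536, 0.569, 0.735 and 0.817 RPKM in the AdVEGF mice. The groups did not overlap, and the values stood on 9 to 26 reads in the AdCMV and 40 to 75 reads in the AdVEGF libraries. Its log2 fold change was 1.59 (SE 0.40, adjusted p = 0.00822). An antisense transcript, Plxna4os1, overlaps Plxna4 and had means of 0.189 and 0.69 RPKM; as the strand used in counting is not given in the sources used here, reads of both cannot be separated.

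The other plexins changed less than the thresholds ask. Plxnb2, a class B plexin that binds class 4 semaphorins and was the most abundant plexin of the AdCMV livers, was at 13.95, 9.79, 16.7, 9.65 and 20.3 RPKM in the AdCMV mice and at 18.2, 17.1, 18.9, 18.4 and 19.6 RPKM in the AdVEGF mice, with a log2 fold change of 0.44 (SE 0.22, adjusted p = 0.142). The groups overlapped because AdCMV mouse 5 was the highest of all 10. Plxna2, a receptor for class 6 and class 3 semaphorins, was at 3.53, 2.87, 4.27, 2.16 and 4.83 RPKM in the AdCMV mice and at 5.84, 5.45, 5.52, 5.77 and 6.39 RPKM in the AdVEGF mice. These groups did not overlap, and the log2 fold change of 0.75 (SE 0.23, adjusted p = 0.0239) was under the threshold of 1. Plxnb1, the main receptor of Sema4d, was at 3.42, 1.97, 4.52, 2.11 and 5.78 RPKM in the AdCMV mice and at 5.39, 3.82, 4.53, 5.62 and 5.97 RPKM in the AdVEGF mice, with overlapping groups and a log2 fold change of 0.60 (SE 0.28, adjusted p = 0.128). Plxnc1, the receptor of Sema7a, and Plxna1 had log2 fold changes of 0.49 and 0.40 and were not called. After median-ratio scaling, Plxnb2, Plxnc1 and Plxna1 were at 0.04, 0.10 and 0.04.

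Among the Robos, Robo4 and Robo2 were called higher and Robo1 was not. Robo4 (NM_028783, mm9 chr9:37209631-37221607, plus strand), the Robo known from endothelium, was at 1.47, 1.27, 3.29, 1.71 and 2.75 RPKM in the AdCMV mice and at 10.3, 9.87, 12.1, 13.1 and 11.7 RPKM in the AdVEGF mice. The AdCMV mice lay far below every AdVEGF mouse. AdCMV mice 3 and 5, whose libraries had the highest scaling factors of their group, again had its highest values. Its log2 fold change was 2.47 (SE 0.25, adjusted p = 2e-06), or 5.55-fold, and 2.08 after median-ratio scaling. Robo2 (NM_175549, mm9 chr16:73892551-74411157, minus strand), a receptor of Slits best known in axon pathfinding, was at 0.103, 0.157, 0.554, 0.198 and 0.39 RPKM in the AdCMV mice and at 1.02, 1.01, 0.958, 1.06 and 0.834 RPKM in the AdVEGF mice. The groups did not overlap, and its log2 fold change was 1.63 (SE 0.38, adjusted p = 0.00475). Robo1 ranged from 1.29 to 2.95 RPKM in AdCMV mice and from 2.30 to 3.17 RPKM in AdVEGF mice, with a log2 fold change of 0.51 (SE 0.25, adjusted p = 0.143). Robo3, which lies 2022 bases from Robo4 on the opposite strand, had at most 2 reads in any library and was not tested. Reads at this locus thus lay on Robo4 and not on its neighbour.

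Of the Unc5 receptors and Dcc, 3 were tested, and Unc5b and Unc5a were called higher. Unc5b (NM_029770, mm9 chr10:60225343-60294329, minus strand), the netrin receptor of endothelial tip cells, was at 0.543, 0.9, 1.85, 0.544 and 1.37 RPKM in the AdCMV mice and at 6.51, 6.79, 11.0, 7.84 and 8.99 RPKM in the AdVEGF mice. All AdVEGF mice were above all AdCMV mice, with AdVEGF mouse 3 the highest. Unc5b had a log2 fold change of 2.98 (SE 0.30, adjusted p = 2.07e-06), or 7.91-fold, and 2.61 after median-ratio scaling. Unc5a (NM_153131, mm9 chr13:55050793-55107379, plus strand), a related receptor known mainly from neurons, was at 0.209, 0.206, 0.449, 0.134 and 0.351 RPKM in the AdCMV mice and at 0.675, 0.783, 0.497, 1.15 and 0.826 RPKM in the AdVEGF mice. The groups did not overlap, though AdCMV mouse 3 came close to AdVEGF mouse 3. Its log2 fold change of 1.29 (SE 0.38, adjusted p = 0.0202) stood on 5 to 14 and 11 to 37 reads, was 0.99 and not called after median-ratio scaling, and had adjusted p-values of 0.0522 without AdCMV replicate 1 and 0.0572 without AdVEGF replicate 4. Hk3, which overlaps Unc5a on the opposite strand, had means of 3.42 and 2.65 RPKM. Dcc, the receptor through which netrin attracts axons, was at 0.843 to 1.34 RPKM in AdCMV mice and 0.693 to 1.23 RPKM in AdVEGF mice, with a log2 fold change of -0.17 (SE 0.28, adjusted p = 0.67). Markers of Schwann cells and neurons, cells in which Dcc and Unc5a are best known, summed to 2.65 to 6.02 RPKM in the AdCMV and 3.33 to 6.96 RPKM in the AdVEGF mice, 3 of 10 were tested and 0 were called, and Elavl4 was at 0 in all libraries.

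**Figure D1:**
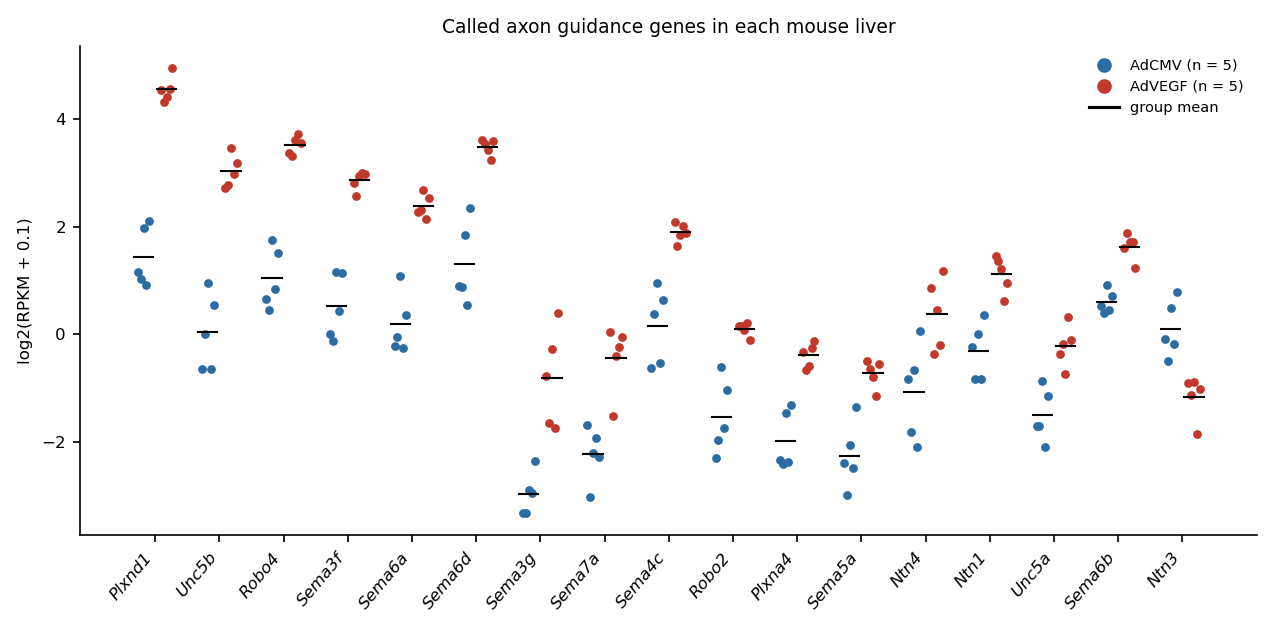
Each point is 1 mouse, on the y axis as log2(RPKM + 0.1), for the 17 called members on the x axis in order of fold change; blue points are AdCMV mice, red points AdVEGF mice and bars group means (n = 5). Plxnd1, Unc5b and Robo4 stand clear of the AdCMV mice, Ntn4 overlaps, and Ntn3 is the member on the lower side.

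The semaphorins, the ligands of plexins, made up the largest family, and 8 of the 15 tested were called higher and 0 lower. Class 3 semaphorins are secreted, and 2 of the 4 tested were called. Sema3f (NM_011349, mm9 chr9:107583833-107612806, minus strand), which signals through the neuropilin Nrp2 and is known to restrain vessel growth, was at 0.901, 0.813, 2.15, 1.26 and 2.11 RPKM in the AdCMV mice and at 6.91, 5.83, 7.58, 7.95 and 7.84 RPKM in the AdVEGF mice. The lowest AdVEGF mouse was well above the highest AdCMV mouse, and the log2 fold change was 2.34 (SE 0.27, adjusted p = 6.95e-06), or 5.06-fold, and 1.96 after median-ratio scaling. Sema3g (NM_001025379, mm9 chr14:32031059-32042697, plus strand), a class 3 semaphorin known from endothelium, was at 0, 0, 0.035, 0.029 and 0.095 RPKM in the AdCMV mice and at 0.485, 0.22, 0.731, 0.201 and 1.22 RPKM in the AdVEGF mice. These were 0, 0, 1, 1 and 2 reads, 4 in all, against 10, 6, 15, 6 and 30 reads, 67 in all. Its log2 fold change of 2.16 (SE 0.53, adjusted p = 0.00745) depends on the value added before the logarithm, and was 0.57 with 1 RPKM added and 4.03 with 0.01 RPKM added. With voom on recovered reads it was 3.84, above the 3.19 of Plxnd1. AdVEGF mouse 5 held 30 of the 67 reads, and without AdVEGF replicate 5 Sema3g was under the filter and was not tested.

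Sema3d and Sema3e, further class 3 semaphorins of which Sema3e is the direct ligand of Plxnd1, were not called. Sema3e was at 0.505 to 1.19 RPKM in the AdCMV mice, and at 0.807 to 1.08 RPKM in 4 AdVEGF mice and 1.93 RPKM in AdVEGF mouse 3, with a log2 fold change of 0.59 (SE 0.32, adjusted p = 0.182). The receptor Plxnd1 was called at 3.12, while its direct ligand Sema3e stayed close to the median of 0.38 over the genes tested. Sema3d was at 0.326 to 0.881 RPKM and 0.746 to 1.24 RPKM, with a log2 fold change of 0.85 (SE 0.34, adjusted p = 0.0758) that rose to 1.02 without AdCMV replicate 5 (adjusted p = 0.0375). On reads recovered from the values and tested with voom it was also 1.02 (adjusted p = 0.0191).

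Class 4 semaphorins span the membrane, and 1 of the 5 tested was called higher. Sema4c (NM_001126047, mm9 chr1:36605485-36615226, minus strand), a ligand of Plxnb2, was at 0.547, 1.19, 1.84, 0.588 and 1.47 RPKM in the AdCMV mice and at 4.13, 3.02, 3.49, 3.96 and 3.61 RPKM in the AdVEGF mice. No values overlapped, and the log2 fold change was 1.73 (SE 0.31, adjusted p = 0.000501), and 1.36 after median-ratio scaling. Sema4g, the most abundant member in the AdCMV group, was at 18.0, 14.85, 16.7, 17.2 and 28.8 RPKM in the AdCMV mice and at 18.2, 17.25, 22.0, 22.3 and 25.65 RPKM in the AdVEGF mice. AdCMV mouse 5 was the highest of all, and the log2 fold change of 0.17 (SE 0.21, adjusted p = 0.569) turned to -0.23 after median-ratio scaling. Sema4a, which acts on T cells and on plexins, was at 7.92, 6.45, 9.85, 4.50 and 9.80 RPKM in the AdCMV mice and at 8.44, 6.68, 10.0, 7.74 and 9.31 RPKM in the AdVEGF mice. Here too the groups overlapped, and the log2 fold change of 0.17 (SE 0.23, adjusted p = 0.596) turned to -0.22 after median-ratio scaling and was -0.00 without AdCMV replicate 4. Sema4b was at 2.36, 3.17, 4.88, 2.62 and 3.32 RPKM in the AdCMV mice and at 5.17, 4.73, 5.91, 4.66 and 4.35 RPKM in the AdVEGF mice. Only AdCMV mouse 3 reached into the AdVEGF range, and the log2 fold change was 0.63 (SE 0.22, adjusted p = 0.050).

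Sema4d, a semaphorin known from T cells that binds Plxnb1, is named here after its values were seen. It was at 0.867, 1.25, 2.45, 0.808 and 2.34 RPKM in the AdCMV mice and at 0.479, 0.966, 1.00, 0.744 and 0.733 RPKM in the AdVEGF mice. The groups overlapped, with AdCMV mice 3 and 5 the highest. The log2 fold change of -0.79 (SE 0.35, adjusted p = 0.106) was not called on the deposited values and was -1.14 (adjusted p = 0.00565) and called lower after median-ratio scaling. The 14 markers of T and NK cells summed to 17.3 to 53.3 RPKM in AdCMV mice and 13.3 to 25.4 RPKM in AdVEGF mice, and 6 of the 11 tested were called lower, among them Cd3e (log2 fold change -1.40) and Gzmb (-1.98). The part of any of these cells in the Sema4d values was not tested.

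Class 5 semaphorins carry thrombospondin repeats, and 1 of the 2 members was called higher. Sema5a (NM_009154, mm9 chr15:32174568-32626096, plus strand) was at 0.09, 0.027, 0.141, 0.079 and 0.29 RPKM in the AdCMV mice and at 0.611, 0.537, 0.481, 0.353 and 0.579 RPKM in the AdVEGF mice. The groups did not overlap, on 4 to 18 and 29 to 43 reads, and the log2 fold change of 1.53 (SE 0.44, adjusted p = 0.0182) had an adjusted p of 0.052 without AdCMV replicate 2. Without AdVEGF replicate 1 or 5, Sema5a was under the filter and was not tested. Sema5b, also named after its values were seen, was at 0.67, 0.834, 2.27, 0.445 and 0.536 RPKM in the AdCMV mice and at 0.432, 0.386, 0.394, 0.326 and 0.328 RPKM in the AdVEGF mice. Every AdVEGF mouse was below every AdCMV mouse, and AdCMV mouse 3 stood far above the rest of its group. Its log2 fold change was -0.93 (SE 0.40, adjusted p = 0.0954), and -1.26 (adjusted p = 0.0103) and called lower after median-ratio scaling.

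Class 6 semaphorins are transmembrane ligands of class A plexins, and all 3 tested were called higher. Sema6a (NM_018744), a ligand of Plxna2 and Plxna4, was at 0.764, 0.863, 2.03, 0.741 and 1.19 RPKM in the AdCMV mice and at 4.77, 4.88, 6.34, 4.31 and 5.69 RPKM in the AdVEGF mice. Its groups did not overlap, and AdCMV mouse 3 was the highest of its group. Its log2 fold change was 2.20 (SE 0.27, adjusted p = 1.23e-05), and 1.83 after median-ratio scaling. Sema6d (NM_199240, mm9 chr2:124479317-124493525, plus strand), a ligand of Plxna1 with a role in heart development, was the most abundant of the class, at 1.78, 1.74, 3.51, 1.36 and 5.01 RPKM in the AdCMV mice and at 12.1, 11.5, 10.6, 9.42 and 11.98 RPKM in the AdVEGF mice. The lowest AdVEGF mouse was above AdCMV mouse 5, the highest of the controls, and the log2 fold change was 2.18 (SE 0.30, adjusted p = 3.7e-05), and 1.79 after median-ratio scaling. Sema6b (NM_013662, mm9 chr17:56262508-56273275, minus strand), a further ligand of class A plexins, was at 1.34, 1.22, 1.79, 1.27 and 1.54 RPKM in the AdCMV mice and at 2.93, 3.59, 3.17, 3.18 and 2.25 RPKM in the AdVEGF mice. Its groups were apart, but the log2 fold change of 1.03 (SE 0.23, adjusted p = 0.00331) sat at the threshold, was 0.64 after median-ratio scaling, and fell to 0.97 without AdCMV replicate 2, 0.99 without AdCMV replicate 4 and 0.96 without AdVEGF replicate 2, each of which ends the call. Sema7a (NM_011352, mm9 chr9:57787942-57810672, plus strand), a semaphorin anchored in the membrane by a lipid that binds integrins and Plxnc1, was at 0.212, 0.023, 0.117, 0.163 and 0.107 RPKM in the AdCMV mice and at 0.929, 0.248, 0.658, 0.754 and 0.866 RPKM in the AdVEGF mice. AdVEGF mouse 2 was close to the controls and the other 4 were well above them, on 1 to 5 reads against 6 to 20 reads. The log2 fold change of Sema7a was 1.79 (SE 0.45, adjusted p = 0.00791), and 1.50 after median-ratio scaling.

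The netrins, secreted ligands of Dcc and the Unc5 receptors, held the single member called lower. Ntn1 (NM_008744, mm9 chr11:68022866-68200328, minus strand), the founding netrin and a ligand of Unc5b, was at 0.747, 0.466, 0.908, 0.463 and 1.18 RPKM in the AdCMV mice and at 2.64, 2.47, 2.21, 1.44 and 1.84 RPKM in the AdVEGF mice. The groups did not overlap, and the log2 fold change was 1.42 (SE 0.30, adjusted p = 0.00241), and 1.06 after median-ratio scaling. Ntn4 (NM_021320, mm9 chr10:93103794-93208717, plus strand), a netrin of basement membranes, was at 0.461, 0.185, 0.529, 0.133 and 0.941 RPKM in the AdCMV mice and at 1.71, 0.673, 1.27, 0.769 and 2.17 RPKM in the AdVEGF mice. AdVEGF mice 2 and 4 were below AdCMV mouse 5, so the groups overlapped, on 3 to 13 and 12 to 35 reads. The log2 fold change of Ntn4 was 1.45 (SE 0.44, adjusted p = 0.0243) and 1.14 (adjusted p = 0.0698) after median-ratio scaling. Without AdCMV replicate 2 or 4 the adjusted p of Ntn4 was 0.0626 or 0.0683, and without AdVEGF replicate 1, 3 or 5 it was 0.0601, 0.0527 or 0.0609, so that each of these 5 mice decides its call. Gm8580, which overlaps Ntn4 on the opposite strand, had means of 14.7 and 22.5 RPKM.

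Ntn3 (NM_010947, mm9 chr17:24340791-24346332, minus strand), a netrin that binds the same receptors as Ntn1, was at 0.848, 0.606, 1.30, 0.781 and 1.63 RPKM in the AdCMV mice and at 0.437, 0.358, 0.439, 0.176 and 0.395 RPKM in the AdVEGF mice. Every AdVEGF mouse was below every AdCMV mouse, on 7 to 13 reads against 30 to 50 reads. The log2 fold change was -1.26 (SE 0.36, adjusted p = 0.0173), and -1.59 after median-ratio scaling. In the annotation of GRCm38 an antisense gene overlaps the 5′ end of Ntn3, and it was not analysed here. Slit1, Slit2 and Slit3, the secreted ligands of the Robos, had at most 2, 3 and 5 reads in any library and were not tested. The Slits were thus not measurable at this depth.

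**Figure D2:**
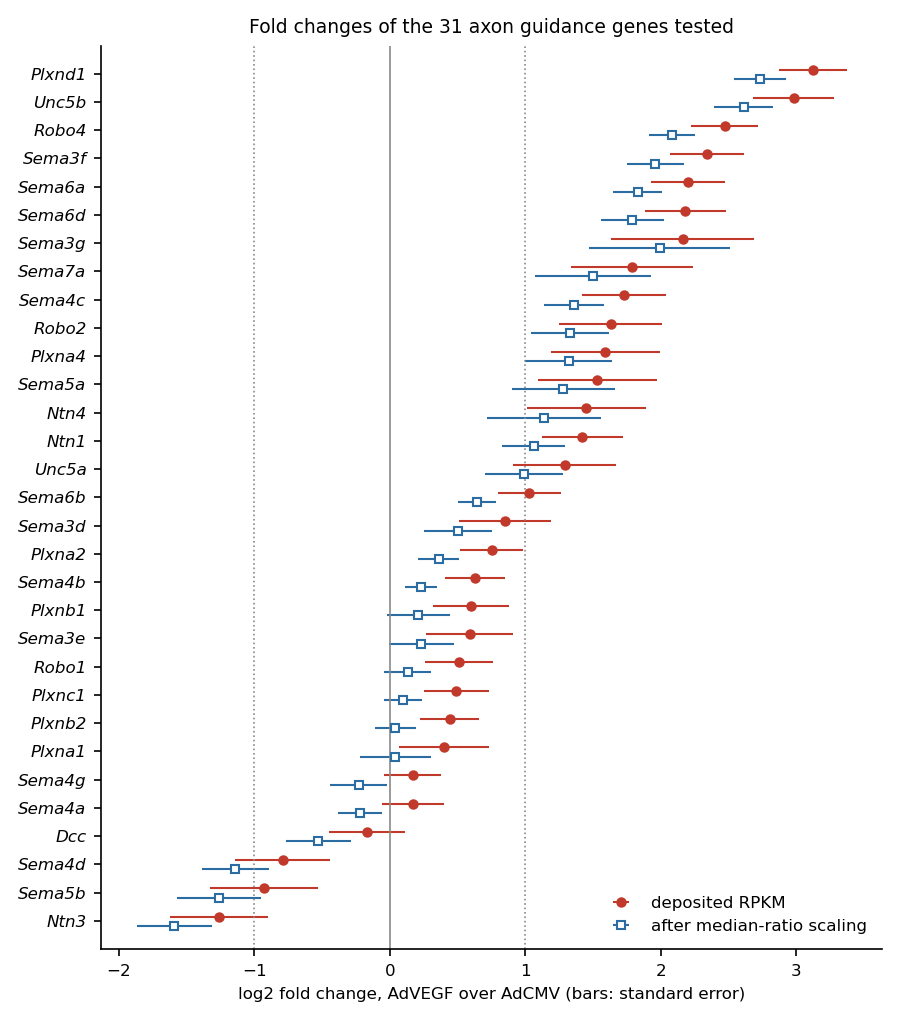
The x axis gives the log2 fold change, AdVEGF over AdCMV, of the 31 members tested, with bars for the standard error; filled red points are the deposited RPKM, open blue squares the values after median-ratio scaling, and dotted lines mark -1 and 1. Scaling moved the members down together, so that 13 rather than 16 were called higher and Sema4d and Sema5b joined Ntn3 among the members called lower.

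Over the 45 members, every AdVEGF mouse was above every AdCMV mouse for 17 and below for 2, Ntn3 and Sema5b. Among the 18554 genes above 0 in at least 1 library, 11.5% were without overlap on the higher side and 1.05% on the lower side. Of the 27 ligands, 18 were tested, with 10 called higher and 1 lower, and 8 and 3 after median-ratio scaling. Of the 18 receptors, 13 were tested, with 6 called higher and 0 lower, and 5 and 0 after scaling. Over all genes tested, 13.0% were called higher and 1.54% lower, and 7.77% and 3.14% after scaling. Some of the tested members passed the filter through 1 group only, as named above.

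Because both groups of libraries differ in their Mup share, the members were also compared within their own family, as the share of each in the family's summed RPKM in the same mouse. Such a share does not depend on the scaling between libraries; it was added after the values were seen and is given without a test. The plexins summed to 19.2 to 42.6 RPKM in AdCMV mice and 52.2 to 69.9 RPKM in AdVEGF mice. The Robos summed to 2.75 to 6.84 RPKM in AdCMV mice and 13.2 to 16.9 RPKM in AdVEGF mice. For the Unc5 receptors and Dcc these sums were 1.62 to 3.78 RPKM and 8.42 to 12.4 RPKM. Plxnd1 took 8.01% to 10.6% of the plexin RPKM in AdCMV mice and 36.5% to 44.3% in AdVEGF mice, while Plxnb2 took 46.2% to 52.5% and then 28.0% to 32.8%. In the AdCMV livers Plxnb2 thus led the plexins in each mouse, and in the AdVEGF livers Plxnd1 did. Robo4 took 44.1% to 50.3% of the Robo RPKM in AdCMV mice and 74.5% to 77.2% in AdVEGF mice, while Robo1 took 42.6% to 52.8% and then 16.4% to 20.2%. Unc5b took 25.0% to 53.4% of the RPKM of the Unc5 receptors and Dcc in AdCMV mice and 74.9% to 88.5% in AdVEGF mice, while Dcc took 32.9% to 61.9% and then 6.85% to 14.0%. In each of the 3 receptor families 1 gene, the one known from endothelium, therefore held the largest share in every AdVEGF mouse. Robo4 already held it in AdCMV mice 3, 4 and 5, and Unc5b in AdCMV mice 3 and 5.

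The ligand families held other shares in the AdVEGF mice as well. Ntn3 took 38.3% to 56.7% of the netrin RPKM in the AdCMV mice and 7.39% to 11.2% in AdVEGF mice. Ntn1 took 31.5% to 37.1% in AdCMV mice and 41.8% to 70.5% in AdVEGF mice, and Ntn4 overlapped, at 9.66% to 25.0% and 19.2% to 49.2%. The summed semaphorins were at 32.4 to 59.1 RPKM in AdCMV mice and 62.3 to 77.5 RPKM in AdVEGF mice. Class 4 semaphorins, led by Sema4g, held 71.4% to 81.4% of this sum in AdCMV mice and 52.5% to 57.3% in AdVEGF mice. Class 6 held 10.4% to 14.6% in AdCMV mice and 24.7% to 32.4% in AdVEGF mice, and for class 3 these shares were 5.31% to 9.07% and 13.3% to 16.1%. Within class 3, Sema3f held 38.6% to 49.8% in AdCMV mice and 61.8% to 73.1% in AdVEGF mice.

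**Figure D3:**
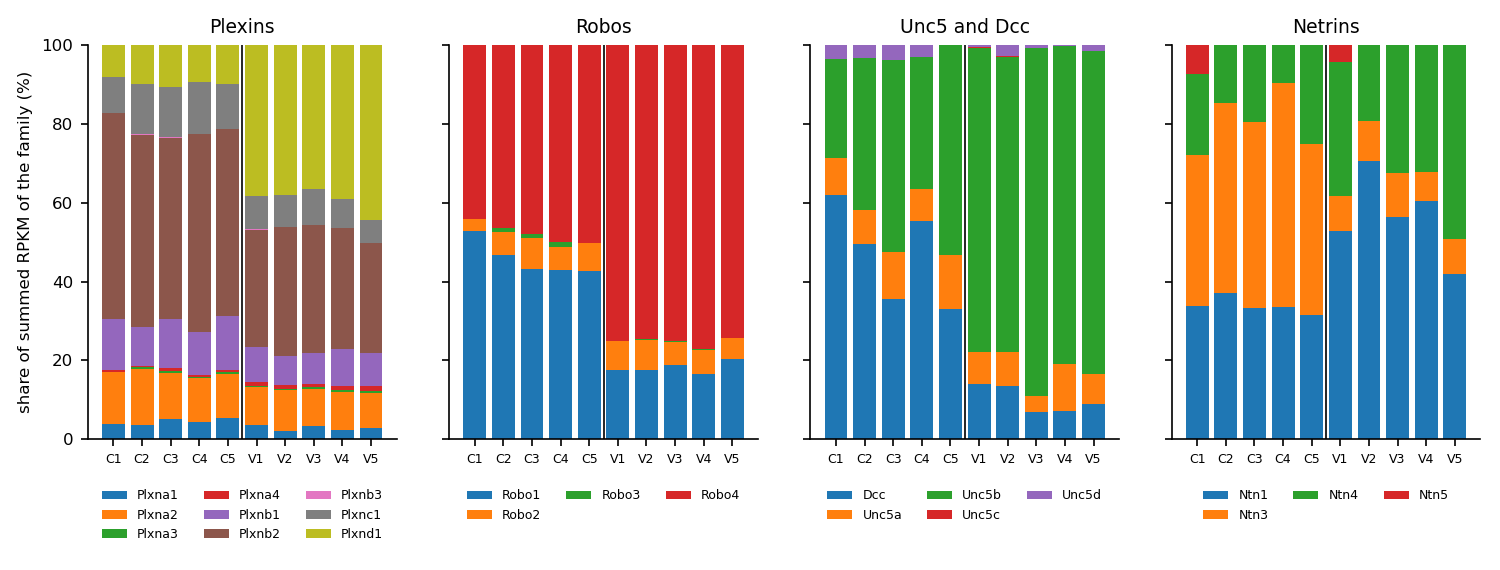
Stacked bars give the share of each gene (y axis, percent) in the summed RPKM of its family in each mouse, with AdCMV mice 1 to 5 (C1 to C5) left and AdVEGF mice 1 to 5 (V1 to V5) right of the vertical line. Plxnd1, Robo4 and Unc5b hold the top shares in every AdVEGF mouse, and Ntn3 narrows to 7.39% to 11.2% of the netrins.

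Markers of several cell types moved with these members. The 13 pan-endothelial markers other than Robo4 (among them Pecam1, Cdh5, Kdr and Tek) summed to 42.3 to 83.7 RPKM in AdCMV mice and 364 to 461 RPKM in AdVEGF mice, and 13 of 13 were called higher with a median log2 fold change of 2.75. These markers did not rise alike, from 1.43 for Tek and 1.50 for Eng to 5.33 for Emcn, so calls against their sum depend on the markers chosen. The sum of 10 markers of sinusoidal endothelium, the fenestrated endothelium of the liver, was 68.0 to 121 RPKM in the AdCMV and 217 to 307 RPKM in the AdVEGF mice, with 9 of 10 called higher and 6 higher and 1 lower after median-ratio scaling. Stellate cell markers summed to 24.7 to 45.2 and 104 to 162 RPKM (9 of 9 tested were called higher, and 9 after scaling). Kupffer cell markers summed to 145 to 315 and 306 to 473 RPKM (3 of 11 called higher, and 2 after scaling). Cholangiocyte markers summed to 25.5 to 54.9 and 284 to 728 RPKM, with 1 of 5 tested called higher, and 1 after scaling. Hepatocyte markers summed to 17100 to 22000 and 30200 to 37500 RPKM, with 2 of 9 called higher. After median-ratio scaling 0 of these were called higher and 1, Cyp2e1, was called lower. Over all genes tested, 13.0% were called higher on the deposited values and 7.77% after scaling. Which cells the members were expressed in was not tested. The members were therefore also set against the pan-endothelial sum in the same mouse, by subtracting its log2 value before the same limma test.

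Against that sum, 0 members were called higher, 22 were called lower and 9 were not called. With the median over the marker list in place of the sum, or with a pseudocount of 1, 26 members were called lower. Over all genes tested, 0.215% were called higher and 93.2% lower, with a median log2 fold change of -2.30. The 9 members were Plxnd1, Unc5b, Robo4, Sema3f, Sema6a, Sema6d, Sema3g, Sema7a and Sema4c. Plxnd1 was at 3.10 to 5.33 RPKM per 100 RPKM of the pan-endothelial sum in AdCMV mice and at 4.89 to 8.50 in AdVEGF mice, a log2 fold change of 0.43 (SE 0.18, adjusted p = 0.0364) that is under the threshold of 1. Unc5b was at 0.98 to 2.20 and 1.64 to 2.54 per 100, with a log2 fold change of 0.30 (SE 0.21, adjusted p = 0.175). For Robo4 these values were 2.02 to 4.03 and 2.59 to 3.21 per 100, with a log2 fold change of -0.21 (SE 0.19, adjusted p = 0.276). The groups overlapped for all 3 receptors. The values of Sema3f (-0.35), Sema6a (-0.48), Sema6d (-0.51) and Sema3g (-0.52) were below 0 and within the threshold, and those of Sema7a (-0.90) and Sema4c (-0.95) lay just inside it. Of the members that were called higher on the deposited values, Robo2 (-1.05), Plxna4 (-1.10), Sema5a (-1.16), Ntn4 (-1.23), Ntn1 (-1.26), Unc5a (-1.40) and Sema6b (-1.66) were called lower against the sum. Plxna1, Plxnb2, Plxnc1 and Robo1 lay near the median of all genes, between -2.17 and -2.28, and Ntn3 lay lowest at -3.95.

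**Figure D4:**
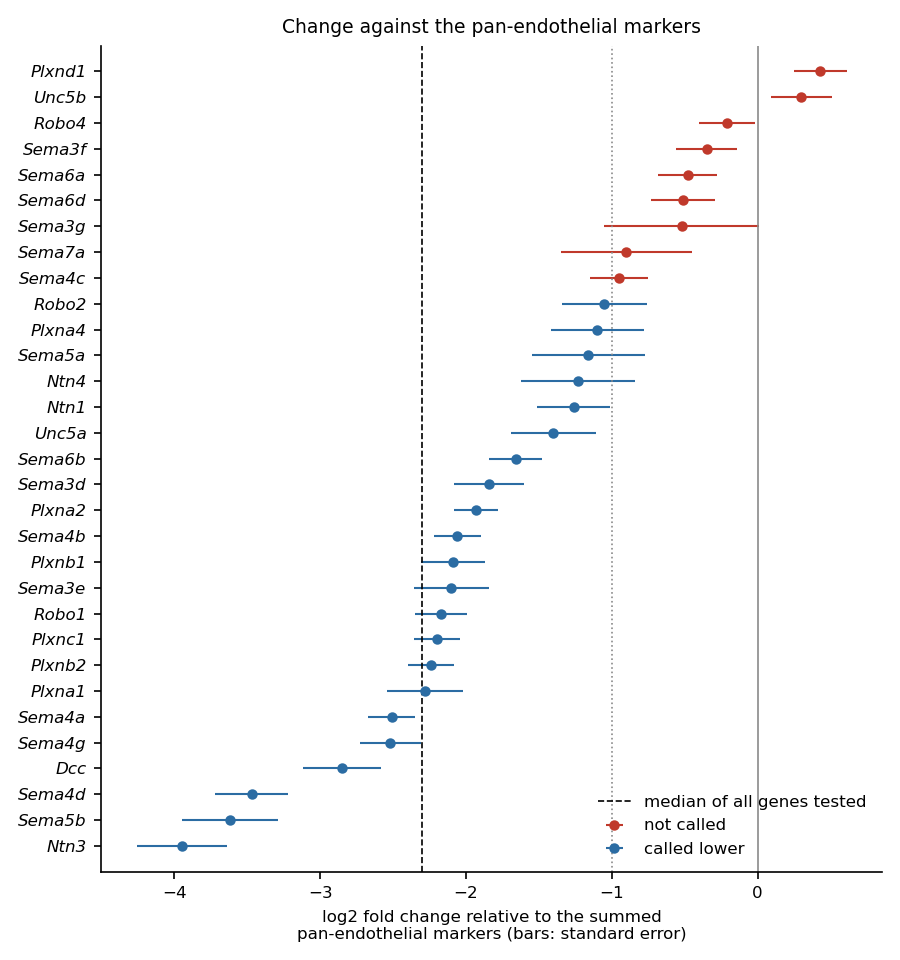
The x axis gives the log2 fold change of each of the 31 members relative to the summed RPKM of 13 pan-endothelial markers in the same mouse, with bars for the standard error; the dashed line is the median of all genes tested, -2.30. Red points, not called, run from Plxnd1 at 0.43 to Sema4c at -0.95, and the 22 blue points were called lower.

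Coreceptors and partners of these families were counted from lists of the pathway's known parts. Of 33 tested coreceptors and signalling genes of semaphorins, 10 were called higher and 0 lower, with a median log2 fold change of 0.72 beside 0.38 over all genes tested, and 6 were called higher after median-ratio scaling. Over all genes, 13.0% were called higher on the deposited values and 7.77% after scaling, and the counts of the lists here are to be read against these shares. Nrp1, the neuropilin that also binds VEGF-A165, was at 16.8 to 26.5 RPKM in the AdCMV mice and at 55.5 to 86.5 RPKM in AdVEGF mice (log2 fold change 1.83, SE 0.20, adjusted p = 3.42e-06). Nrp2, the neuropilin of Sema3f, rose by 1.19 on the log2 scale (SE 0.30, adjusted p = 0.00863), and by 0.81 after median-ratio scaling, which is not called. Fyn, a kinase downstream of plexins, and Dpysl2 and Dpysl3, cytosolic proteins of the CRMP family through which semaphorins act on microtubules, rose by 2.16, 1.79 and 2.54. Gipc1, an adaptor that binds the tails of plexins and neuropilins, rose by 1.63, Mical1, an enzyme that takes actin filaments apart, by 1.61 and Trem2, a receptor of myeloid cells that partners with Plxna1, by 1.34, the last not called after scaling.

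Of 24 tested partners of Slits and Robos, 5 were called higher and 0 lower (median log2 fold change 0.60), and 2 after median-ratio scaling, a share close to the 7.77% of all genes. Cxcr4, the receptor of Cxcl12 whose signal Slit-Robo can dampen, was at 0.229 to 1.15 RPKM in the AdCMV mice and at 9.17 to 20.1 RPKM in AdVEGF mice (log2 fold change 4.33, SE 0.34, adjusted p = 1.61e-07). Srgap1, a GTPase-activating protein that binds Robo tails, rose by 2.14 (SE 0.35, adjusted p = 0.000228). Abl1, Nck2 and Sdc3 rose by 1.02, 1.18 and 1.06 and were not called after median-ratio scaling. Of 18 tested netrin partners, 6 were called higher and 0 lower (median 0.73), and after scaling only Flrt2, a ligand of Unc5 receptors, was called (1.36 on the deposited and 1.10 on the scaled values), a smaller share than the 7.77% of all genes. Myo10, Dock1, Rgmb and Src, among those called on the deposited values only, were at 1.03 to 1.24. For comparison with a further guidance system, 4 of 8 tested ephrins and Eph receptors were called higher and 0 lower (median 1.16), and 3 after scaling. Efnb2, the ephrin of arterial endothelium, was at 0.32 to 0.725 RPKM in the AdCMV mice and at 11.2 to 18.4 RPKM in AdVEGF mice (log2 fold change 4.70, SE 0.24, adjusted p = 2.24e-09), ahead of Plxnd1. Efnb1, Epha7 and Efna1 rose by 1.77, 1.55 and 1.40, and Ephb4, the receptor of Efnb2, known from veins, was at 0.93 (adjusted p = 0.0276) and not called.

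The 14 members below the filter were 5 semaphorins, 2 plexins, 3 Slits, Robo3, Ntn5, Unc5c and Unc5d. Sema3a, a secreted repellent that binds Nrp1 with class A plexins, had 3, 5, 9, 4 and 5 reads in the AdCMV mice and 9, 13, 7, 18 and 13 reads in the AdVEGF mice. As RPKM it was at 0.058 to 0.178 and at 0.195 to 0.346, and its groups did not overlap. Plxna3 had 2 to 9 and 6 to 13 reads with overlapping RPKM, and Unc5d had 0 to 10 and 1 to 17 reads. Sema3b had 0 to 7 and 1 to 6 reads, Sema3c had 2 to 11 and 2 to 8, Sema4f had 2 to 16 and 0 to 6, and Sema6c had 0 to 4 and 1 to 6. Unc5c had 0 reads in all AdCMV mice and 1 read in each of 2 AdVEGF mice, Ntn5 had 2 reads in 1 mouse of each group, and Plxnb3 had at most 4 reads. Apart from Sema3a, which fitted without the filter had a log2 fold change of 0.92 (adjusted p = 0.024) and so was not called either, the RPKM of these genes overlapped between the groups, and no difference was detectable at this depth.

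**Figure D5:**
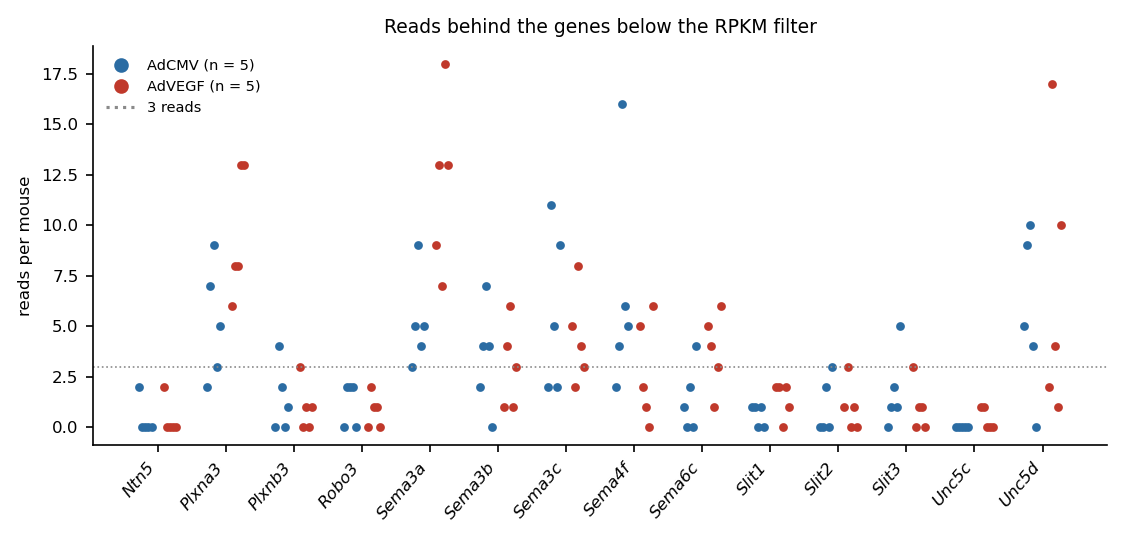
Points give the reads recovered for each mouse (y axis) on the 14 members below the filter (x axis), with AdCMV in blue, AdVEGF in red and a dotted line at 3 reads. The Slits, Robo3, Ntn5, Plxnb3 and Unc5c stay at or below 5 reads in every mouse, and Sema3a reaches 18 reads.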

How the data were processed

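RNA-seq of liver from 5 AdVEGF and 5 AdCMV mice was analysed. Per the labels and methods, ribosomal RNA was removed, libraries were made by poly(A)-tailing and circularization, reads were mapped with TopHat, and HOMER and the mm9 build were named in the submitters' processing notes; the strand used in counting is not given in the sources used here. The authors deposited RPKM values for each mouse, normalized by each library's own mapped tags and not between libraries, and 2 columns of their own comparison, a fold change and an adjusted p, which were not used. The labels call the samples biological replicates.

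From the RPKM, limma (version 3.58.1, R 4.3.3; lmFit, eBayes with a trend) was run on log2(RPKM + 0.1) for the 13933 genes whose mean exceeded 0.5 RPKM in either group, and p-values were adjusted over all of them (Benjamini-Hochberg). Fold changes on this scale understate the change of low genes. Calls needed an adjusted p under 0.05 together with a change above 1 on the log2 scale, up or down. A second fit subtracted the log2 of the summed RPKM of 13 pan-endothelial markers. Whole reads were recovered from the steps of the RPKM values (in each library, at least 99.932% came out whole within 0.1 read) and gave depth and the voom alternative. Within a group no pair of libraries was closer than 12.4 times counting variance, so none was a repeat, and 5 transcripts without a symbol were left out. The fit was tested on simulated data.

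Called members, and the 6 members with the highest group means among those not called, are given for each mouse; of pathway lists at most 8 called genes are named. The members and lists were chosen with earlier results of these data known. Positions are those of the table (mm9); only 1128 of 22919 shared symbols started within 2000 bases of GRCm38, so promoters are given in GRCm38.p6 from RefSeq and the builds were not mixed. The alternatives comprised scaling by median ratio or upper quartile, pseudocounts of 1 and 0.01, no filter, a group mean over 1 RPKM, voom on recovered reads (also after median-ratio scaling), treat, the replicate block and leaving out each mouse. Figures were drawn with Python 3.11.15.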

Additional observations from a re-analysis of the deposited data

Results flagged for a closer look

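Among 62 groups of 5 values, those of the 31 tested members in both groups, 3 held a mouse whose gap to the rest of its group passed Dixon's 95% limit; chance alone flags about 1 in 20 groups. Sema3e was at 1.93 RPKM in AdVEGF replicate 3 and at 0.807 to 1.08 RPKM in the other AdVEGF mice. Sema4g was at 28.8 RPKM in AdCMV replicate 5 and at 14.9 to 18.0 RPKM in the other AdCMV mice. Sema5b was at 2.27 RPKM in AdCMV replicate 3 and at 0.445 to 0.834 RPKM in the other AdCMV mice. These 3 genes were not called with or without the mouse concerned.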

How the results depend on the processing

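Over all genes, 1808 calls were higher and 214 lower; median-ratio scaling gave 1082 and 438, upper quartile scaling 1197 and 353, voom with median-ratio scaling 1135 and 477, treat against a log2 fold change of 1 gave 503 and 36, a pseudocount of 1 gave 954 higher, and leaving out 1 mouse 1425 to 2357 higher and 178 to 225 lower. Of the calls, 89.4% were higher on the deposited values and 71.2% after median-ratio scaling. Of the members, 16 were higher and 1 lower; 7 were higher with a pseudocount of 1, 10 with a group mean over 1 RPKM, which tests fewer genes, and 6 with treat, and 13 to 17 with 1 mouse left out. The members called lower were 3 with median-ratio and upper quartile scaling and with voom after median-ratio scaling, 0 with a pseudocount of 1 and with treat, and 1 whichever mouse was left out. Ntn1, Ntn3, Plxna4, Robo2, Sema3g, Sema5a and Sema7a lost their calls with a pseudocount of 1 and with treat, as did Ntn4, Sema6b and Unc5a, and Sema4c with treat only; the cause was not tested beyond the smaller fold changes that a larger pseudocount gives. Sema4a turned to -0.22, -0.13 and -0.23 and Sema4g to -0.23, -0.14 and -0.25 with median-ratio scaling, upper quartile scaling and voom after median-ratio scaling, and Sema4a ranged from -0.00 (without AdCMV replicate 4) to 0.27 with 1 mouse left out; neither was called in any of these. Against the pan-endothelial sum, 30 genes were higher, 14 with the median over the list in place of the sum and 7 with a pseudocount of 1, and 28 to 36 with 1 mouse left out; 12985 were lower, 12910 to 13018 with 1 mouse left out. There, 22 members were lower, 26 with the median over the list, 26 with a pseudocount of 1, 36 with no filter and 21 to 23 with 1 mouse left out, and 0 were higher in each of these. Sema3g without AdVEGF replicate 5 and Sema5a without AdVEGF replicate 1 or 5 fell under the filter and had no value.

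With the replicate number as a block, 1933 genes were higher and 256 lower, and 16 members were higher and 1 lower, as without the block. Mice of the same number correlated in their deviations from the group means at 0.04, 0.11, 0.01, 0.10 and 0.29. AdCMV mice 1, 4 and 5 correlated best with the AdVEGF mouse of their own number. AdCMV mouse 2 correlated best with AdVEGF mouse 4, and AdCMV mouse 3 with AdVEGF mouse 2. Such correlations cannot settle whether mice of the same number were handled together. Depth limits the 14 members below the filter and the calls on few reads, Sema3g, Sema7a, Ntn4 and Unc5a first among them.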
